A study of Homo sapiens with 16 samples.

Results

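The MI-2 response shared by 2 lymphoma cell lines was examined in 6 pairs of bead arrays. A pair is an MI-2 array and a vehicle array of 1 line with the same replicate number, and the numbers 1, 2 and 3 in HBL-1 and in TMD8 gave 12 of the 16 arrays of the series. The 4 arrays numbered 4 were not used. HBL-1 and TMD8 are established human cell lines of activated B cell-like diffuse large B cell lymphoma, and every array held RNA taken 8 h after addition of MI-2 or vehicle. The sources used here give neither the dose nor what the vehicle was. Of 34687 named genes, 16279 were detected on at least 3 of the 12 arrays and were tested for 1 common change over both lines, with the pair as a block.

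MI-2 is a small molecule that inhibits MALT1. MALT1 is a protease and scaffold that forms the CBM complex with BCL10, links the B cell receptor to NF-kB and cleaves negative regulators such as TNFAIP3 and Regnase-1. Activated B cell-like lymphoma cells are known for their dependence on this pathway. The unfolded protein response raises chaperones and disulfide isomerases of the endoplasmic reticulum through ATF6, XBP1 and ATF4. The type I interferon response raises antiviral genes through STAT2 and IRF9.

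All values are normalized log2 levels or differences of them, and a change is MI-2 minus vehicle. No gene passed the test for a common change: limma called 0 of 16279 genes at an adjusted p under 0.05, and the smallest adjusted p was 0.641. An unadjusted p under 0.05 was reached by 1079 genes (6.63%), 495 of them higher (3.04%) and 584 lower (3.59%). The change had 1 sign in all 6 pairs for 717 genes (4.4%), of which 322 were higher (1.98%) and 395 lower (2.43%), and the common change was positive for 47% and negative for 53% of all genes. ARMET, higher, and EPSTI1, lower, were the genes limma called without background correction and with normexp at an offset of 50 (0.00614% of genes in either direction). Scaling arrays to their medians instead of quantile normalization changed this: 0.154% of genes were called higher and 24% lower, while the median change of all genes moved to -0.21. The median standard error (SE) of a common change was 0.0978. Beyond 1.5-fold lay 4 genes: AIF1 at 0.63, VPREB3 at -0.98, CD1D at -0.76 and FHL3 at -0.70. All but VPREB3 were named after their values were seen, and VPREB3 was listed with earlier results of these data known. Pair changes ran from 0.14 to 1.55 for AIF1 and from -1.80 to -0.07 for FHL3, each furthest from 0 in HBL-1 pair 2. AIF1 was detected on 2 of 3 vehicle arrays and FHL3 on 2 of 3 MI-2 arrays in each line. CD1D was higher in 1 pair (0.06). Simulated data of the same size held 50 changed genes at each of 0.4, 0.7, 1 and 2 on the log2 scale. The fit recovered 28% of changes of 0.4, 74% of changes of 0.7 and 98% of changes of 1. The adjusted threshold depends on how many genes change, so these shares need not hold for the measured data, where VPREB3 did not pass. Between 34.1% and 40.4% of probes were detected per array, lowest on the HBL-1 arrays numbered 2, and in 5 of 6 pairs the MI-2 array had the lower share detected and the lower median intensity. The part of this difference in the results was not tested.

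The promoters of genes from the stress and interferon programmes are shown first, because they carry known elements of these programmes, whose lists are described further on. The stress element ERSE was searched on both strands as CCAAT, any 9 bases and CCACG, in windows of 250 bases before to 50 after each start site. Of the 28 unfolded protein response genes with a promoter in the RefSeq table (GRCh38.p14), 7 held it, against 0.0916% of all 27305 genes there. A gene counted if any of its promoters held the element. HSPA5 (chr9:125241366-125241434, minus strand), CRELD2 (chr22:49918529-49918597, plus strand), XBP1 (chr22:28800578-28800646, minus strand) and CANX (chr5:179698753-179698821, plus strand) carry it in the capitals below, which in CRELD2 read on the opposite strand.
HSPA5: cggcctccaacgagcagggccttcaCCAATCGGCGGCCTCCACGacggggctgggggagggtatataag
CRELD2: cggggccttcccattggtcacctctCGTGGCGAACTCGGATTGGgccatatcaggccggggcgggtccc
XBP1: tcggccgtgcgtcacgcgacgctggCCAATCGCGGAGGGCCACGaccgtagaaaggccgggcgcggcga
CANX: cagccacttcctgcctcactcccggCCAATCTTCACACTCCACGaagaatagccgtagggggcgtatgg

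The interferon element ISRE was searched on both strands as GAAA, any 2 bases and GAAA, a choice made after the values were seen. It was in the promoters of 17 of 23 interferon response genes with an entry, against 4.38% of all genes with one. EPSTI1 (chr13:42992257-42992316, minus strand), an interferon-induced gene outside the list, IFIT1 (chr10:89392482-89392554, plus strand) and MX1 (chr21:41431829-41431888, plus strand) are shown with the matches in capitals. The matches in IFIT1 and MX1 read on the opposite strand. A match describes these letters only and is no evidence of a factor's binding. Other elements were also searched on both strands. The XBP1 site UPRE (TGACGTGG) was in promoters of 3 of 28 unfolded protein response genes, against 0.927% of all genes. The ATF4 element CARE (TGATGNAA) was found for 4 of 23 integrated stress response genes, against 4.46% of all genes. The NRF2 element ARE (TGACNNNGC) was found for 5 of 18 NRF2 genes, against 16.1% of all genes. ARE was about as common in the other lists, for 8 of 28 unfolded protein response, 8 of 23 integrated stress response and 6 of 23 interferon genes.
EPSTI1: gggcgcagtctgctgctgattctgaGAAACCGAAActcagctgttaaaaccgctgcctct
IFIT1: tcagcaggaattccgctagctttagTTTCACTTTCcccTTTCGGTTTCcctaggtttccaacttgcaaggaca
MX1: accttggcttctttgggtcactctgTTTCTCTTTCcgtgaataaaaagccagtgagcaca

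The genes named next are 9 higher and 10 lower genes from those with the smallest p and 1 sign in all 6 pairs, and none of them passed the adjusted threshold. ARMET, now called MANF, encodes a secreted protein of the endoplasmic reticulum that protects cells from stress there. Its levels in HBL-1 were 10.07, 10.15 and 10.39 with vehicle and 10.75, 10.94 and 10.93 with MI-2, for pairs 1, 2 and 3. In TMD8 they were 10.38, 10.50 and 10.66 with vehicle and 10.65, 10.72 and 11.09 with MI-2. The MI-2 array was above its own vehicle array in each pair, and the groups overlapped in TMD8 but not in HBL-1. The common change was 0.49 (SE 0.09, limma adjusted p = 0.693), or 1.40-fold.

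MBNL2, a regulator of RNA splicing, had the smallest p of the higher genes. Its vehicle levels were 5.33, 5.40 and 5.06 in HBL-1 and 5.06, 4.87 and 5.47 in TMD8. With MI-2 they were 5.81, 6.05 and 5.52 in HBL-1 and 5.33, 5.48 and 6.10 in TMD8. The pair changes lay between 0.27 and 0.65, of like size in the lines, and the common change was 0.52 (SE 0.08, adjusted p = 0.641). A second MBNL2 probe gave 0.66. Other higher genes were NBL1, a secreted antagonist of BMP signals (0.46, SE 0.09), PDIA3P (0.43) and LOC645489 (0.40). PRR20D had a change of 0.48 in HBL-1. Its TMD8 signal was above background on 0 of 3 vehicle arrays and 2 of 3 with MI-2, which puts MI-2 at least 1.01-fold higher there. PDIA3P is a pseudogene nearly identical to PDIA3, a disulfide isomerase of the endoplasmic reticulum, so the source of its signal is uncertain, and its second probe gave 0.22. A second probe of NBL1 gave -0.03. NBL1 was detected on 2 of 6 vehicle arrays, too few to pass the detection filter without its MI-2 arrays. TMEM50B (0.39, second probe -0.01) and CYP2R1, the vitamin D 25-hydroxylase (0.37), were also higher in every pair. MGC11082 was found on 0 of 6 vehicle arrays and 3 of 6 with MI-2, so it passed the detection filter only through its MI-2 arrays. It was at least 1.05-fold higher with MI-2 in TMD8, and HBL-1 gave no bound.

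EPSTI1, an interferon-induced gene, had changes of like size in both lines. Its HBL-1 levels were 7.74, 6.92 and 7.14 with vehicle and 7.36, 6.07 and 6.72 with MI-2. Its TMD8 levels were 9.85, 8.37 and 9.18 with vehicle and 9.42, 7.55 and 8.84 with MI-2. Levels differed more between pairs than between treatments, so the groups overlapped, while each MI-2 array was below its own vehicle array. The common change was -0.54 (SE 0.10, adjusted p = 0.641), with -0.55 in HBL-1 and -0.53 in TMD8.

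VPREB3, which encodes a chaperone-like partner of immunoglobulin light chains in B cells, had the largest difference of all genes tested. Its HBL-1 levels were 7.63, 7.73 and 7.35 with vehicle and 6.43, 5.66 and 6.34 with MI-2, without overlap. In TMD8, with levels of 4.24 to 5.03, it was found on 2 vehicle arrays but on 0 of the 3 with MI-2, which puts MI-2 at least 1.12-fold lower. The common change was -0.98 (SE 0.19, adjusted p = 0.693), with -1.43 in HBL-1 and -0.53 in TMD8 as measured. The bound is the mean of the vehicle arrays against, per MI-2 array, the higher of the lowest signal detected on it and the gene's own signal.

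Among the other lower genes, SLC45A3, a membrane transporter, was at -0.49 (SE 0.08, adjusted p = 0.641) with pair changes of -0.67 to -0.26. With MI-2 it was detected on 2 of 3 HBL-1 and 1 of 3 TMD8 arrays. FKBP8, an anti-apoptotic immunophilin, was at -0.39 and ALDH1B1, a mitochondrial aldehyde dehydrogenase, at -0.41 (second probe -0.24). FKBP8 was detected on 1 of 3 HBL-1 MI-2 arrays. FCRL2, an Fc receptor-like protein of B cells, was at -0.42, but its second probe at -0.12. IRF2BP1, a transcriptional corepressor, was at -0.34 and LOC100128653 at -0.47 as measured. LOC100128653 was detected on every vehicle array but on 1 of 3 MI-2 arrays in each line. It therefore passed the detection filter only with its vehicle arrays counted. IFI44L and OAS1, described with the interferon genes, completed the 10. In the plot of pair changes, all 19 genes shown lie on 1 side of 0 in every pair, which the rule fixed.

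**Figure D1:**
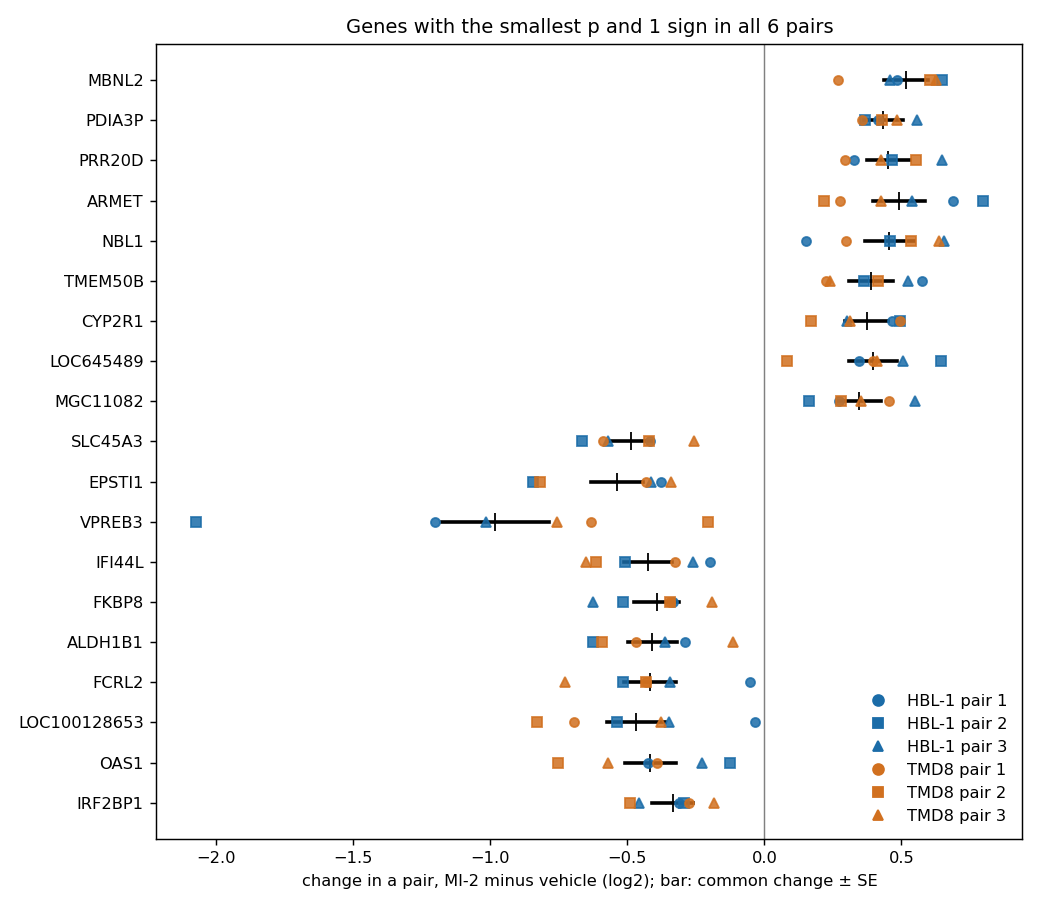
Change in each of the 6 pairs (x axis, log2, MI-2 minus vehicle) for 9 higher and 10 lower genes from those with the smallest p and 1 sign in all 6 pairs (rows); blue symbols are HBL-1, orange TMD8, and the black bar is the common change ± SE. The common changes lie between 0.35 and 0.52 for higher genes and between -0.98 and -0.34 for lower ones as measured. Vehicle levels of MGC11082, and of PRR20D in TMD8, were below detection, as were MI-2 levels of VPREB3 in TMD8. NBL1 was detected on 1 of 3 vehicle arrays and LOC100128653 on 1 of 3 MI-2 arrays in each line. No gene passed the adjusted threshold.

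Genes of the unfolded protein response had the highest median of the 26 gene lists, which were chosen with earlier results of these data known. Of 31 measured members 27 were higher, with a median of 0.25 against -0.01 for all genes, except that with arrays scaled to their medians the list's median was -0.03, or 0.18 above the median gene, which itself shifted to -0.21. Not a single member passed the adjusted threshold. At an unadjusted p under 0.05, 17 members were higher and 0 lower, where 3.04% of all genes were higher, and 9 were higher in all 6 pairs, where 1.98% of all genes were. The count at an unadjusted p was 13 without HBL-1 pair 2, the pair with the lowest share of probes detected. Without the pair block it was 9, beside 652 of all genes in either direction rather than 1079. For these settings the share of all genes higher is not given.

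HSPA5, the main luminal chaperone (BiP), was at 6.26, 7.19 and 6.60 with vehicle and 7.37, 7.93 and 7.31 with MI-2 in HBL-1. In TMD8 its levels were 7.18, 8.02 and 8.26 with vehicle and 7.38, 8.03 and 8.44 with MI-2. The HBL-1 arrays did not overlap and the TMD8 arrays did, and in TMD8 pair 2 the difference was 0.01. Its common change was 0.49 (SE 0.14, adjusted p = 0.693).

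HYOU1, a nucleotide exchange factor for HSPA5, was at 7.80, 7.77 and 7.77 with vehicle and 8.42, 8.44 and 8.23 with MI-2 in HBL-1. In TMD8 it was at 6.50, 6.51 and 7.01 with vehicle and 6.60, 6.88 and 7.14 with MI-2. The groups did not overlap in HBL-1 and overlapped in TMD8, with a common change of 0.39 (SE 0.10, adjusted p = 0.693) and 0.16 for a second probe. SDF2L1, which acts with a co-chaperone of HSPA5, was at 0.39 (SE 0.10). CRELD2, a stress-induced disulfide isomerase, was at 0.31 (SE 0.08) with 0.28 in HBL-1 and 0.34 in TMD8. The sensor gene ATF6 was at -0.03 and ERN1, the sensor IRE1, at 0.16. XBP1, the transcription factor that ERN1 activates by splicing, was at 0.20 (SE 0.10), with 0.41 in HBL-1 and -0.02 in TMD8. ATF6 and ERN1 were named after their values were seen.

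PDIA4 (0.35), PDIA6 (0.28), CALR (0.25), CANX (0.25) and HSP90B1 (0.20) fold and retain proteins in the lumen. EDEM1 (0.33), HERPUD1 (0.33), SYVN1 (0.27) and DERL2 (0.20) take misfolded proteins to degradation, while DERL1 (-0.02) and DERL3 (-0.04) of the same branch were close to 0. SEC61A1 (0.30) and SEC61B (0.19) form the channel through which proteins enter the reticulum. These members were named after their values were seen. The promoters that hold ERSE belong to HSPA5, CALR, PDIA6, CRELD2, HSP90B1, XBP1 and CANX.

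The median of the list was positive in each pair, at 0.36, 0.34 and 0.32 in HBL-1 and 0.06, 0.11 and 0.15 in TMD8. The number of members higher was 28 of 31 in each HBL-1 pair, and 18, 20 and 24 of 31 in the TMD8 pairs. At an unadjusted p under 0.05, 20 members were higher in HBL-1 (3.77% of all genes) and 2 in TMD8 (2.83% of all genes). In the test of the difference of the lines, 8 members had a lower change in TMD8 at an unadjusted p under 0.05, where 3.18% of all genes did. Among them were HSPA5 (difference -0.72, SE 0.17), SDF2L1 (-0.42, SE 0.15), XBP1 (-0.43, SE 0.15) and HYOU1 (-0.39, SE 0.16). None of these differences passed (adjusted p of 0.769 to 0.774), and limma called 0 genes for the difference of the lines, with 1023 at an unadjusted p under 0.05 (6.28%).

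**Figure D2:**
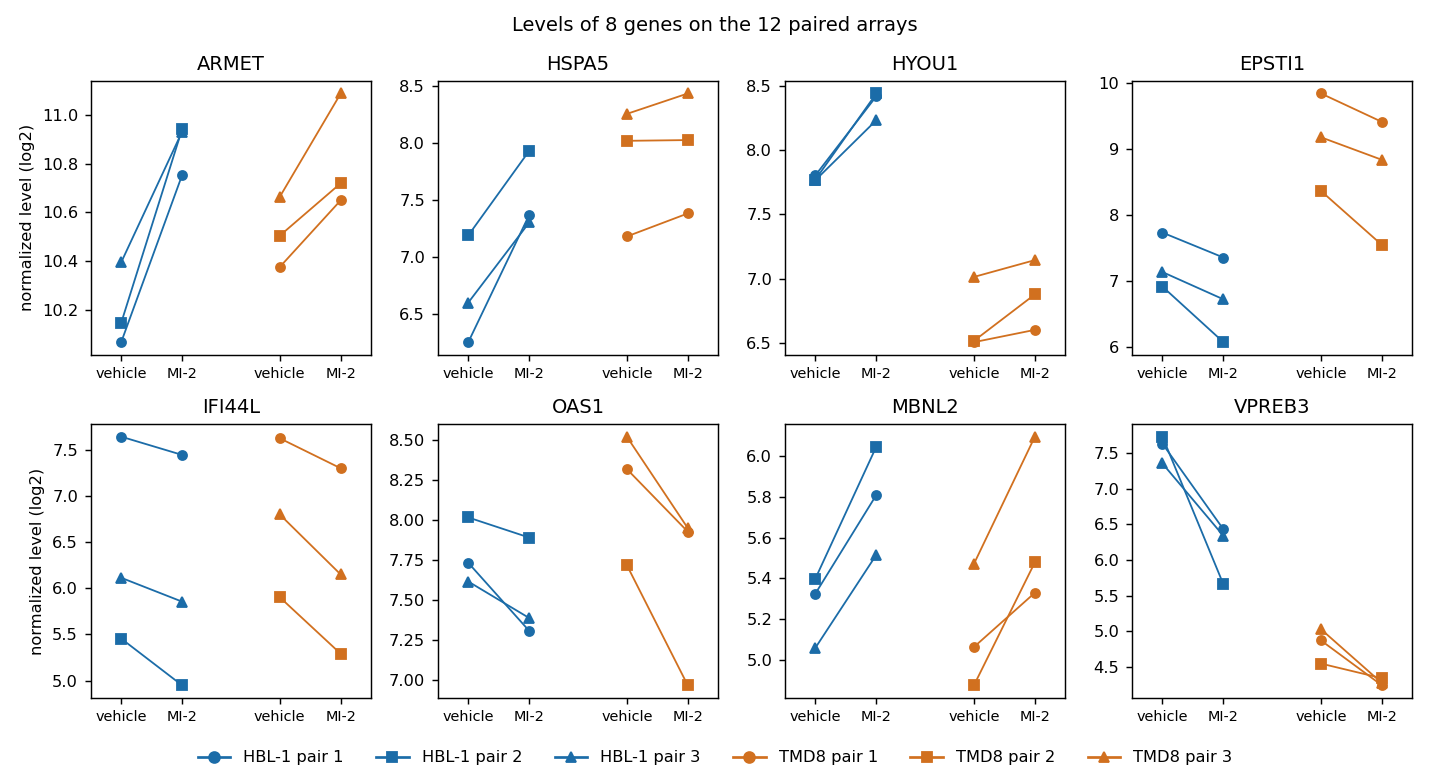
Normalized log2 level (y axis, own range in each panel) of 8 genes on the 12 arrays, with a line joining the vehicle and MI-2 array of each pair; blue is HBL-1, orange TMD8. Lines slope upward for ARMET, HSPA5, HYOU1 and MBNL2 and downward for EPSTI1, IFI44L, OAS1 and VPREB3 in all 6 pairs. The slope is 0.01 for HSPA5 in TMD8 pair 2, and VPREB3 was not detected on the TMD8 MI-2 arrays. No gene passed the adjusted threshold.

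The amino acid and integrated stress response, in which ATF4 raises genes of amino acid synthesis and uptake, shares a branch with the unfolded protein response. Its medians were positive in the HBL-1 pairs and negative in the TMD8 pairs. Of 28 measured members 25 were higher, with a median of 0.15, or -0.09 with arrays scaled to their medians and 0.13 above the median gene. At an unadjusted p under 0.05, 6 members were higher and 0 lower, where 3.04% of all genes were higher. In all 6 pairs 1 of the 28 was higher, a share near the 1.98% of all genes. That gene was PPP1R15A, the phosphatase subunit (GADD34) that ends the translational block, at 0.29 (SE 0.10, adjusted p = 0.699). The pair medians were 0.22, 0.47 and 0.44 in HBL-1 and -0.03, -0.11 and -0.05 in TMD8. In the difference of the lines 15 members had a lower change in TMD8 at an unadjusted p under 0.05, where 3.18% of all genes did.

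PSPH, which completes serine synthesis, was at 6.08, 6.39 and 5.84 with vehicle and 6.77, 7.51 and 6.84 with MI-2 in HBL-1. In TMD8 it was at 5.94, 5.86 and 6.04 with vehicle and 6.25, 6.13 and 5.80 with MI-2. Its HBL-1 groups did not overlap and its TMD8 groups did, and the difference of the lines was -0.83 (SE 0.20, adjusted p = 0.769). Its common change was 0.53 (SE 0.16, adjusted p = 0.693), and 0.10 for a second probe. DDIT3, the stress factor CHOP, was at 0.43 (SE 0.14), with 0.76 in HBL-1 and 0.10 in TMD8. VLDLR, a lipoprotein receptor, was at 0.41, with detection on 1 of 6 arrays with vehicle against 4 of 6 with MI-2. Its vehicle arrays alone would not have passed the detection filter. ATF4 itself was at 0.09 (SE 0.09; other probes -0.17 and 0.06), with 0.26 in HBL-1 and -0.08 in TMD8.

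Of 13 amino acid transporters measured, 9 were higher with a median of 0.09 (0.14 in HBL-1 and 0.04 in TMD8), and 4 were higher in all 6 pairs, where 1.98% of all genes were. SLC6A9, a glycine transporter, was at 0.37 (SE 0.09, adjusted p = 0.693) but was not detected on the TMD8 vehicle arrays. SLC1A4, a transporter of neutral amino acids, was at 0.22 and SLC38A2, a glutamine and alanine transporter that ATF4 induces, at 0.18. The leucine transporter SLC7A5 was at 0.14 (named after its value was seen). Of the 20 cytosolic aminoacyl-tRNA synthetases, which charge tRNAs, 14 were higher with a median of 0.06. WARS was at 0.59 in HBL-1 and -0.11 in TMD8, AARS at 0.44 and -0.01, and MARS at 0.44 and -0.02. The difference of the lines for WARS was -0.70 (SE 0.15, adjusted p = 0.769).

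Interferon response genes had the lowest median of the same 26 lists, chosen with earlier results known. Of 30 measured members 26 were lower, with a median of -0.18, or -0.35 with arrays scaled to their medians and -0.14 relative to the median gene. None passed the adjusted threshold. At an unadjusted p under 0.05, 7 members were lower and 0 higher, where 3.59% of all genes were lower, and 5 were lower in all 6 pairs, where 2.43% of all genes were. The count at an unadjusted p was 2 without the pair block and with pair as a random block. It was 11 without HBL-1 pair 3 and 9 without HBL-1 pair 2. For these settings the share of all genes lower is not given.

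IFI44L, an interferon-induced gene, was at 7.64, 5.45 and 6.11 with vehicle and 7.45, 4.95 and 5.86 with MI-2 in HBL-1. In TMD8 it was at 7.63, 5.90 and 6.80 with vehicle and 7.30, 5.29 and 6.15 with MI-2. Vehicle arrays of 1 line spanned more than any pair change, and the lowest level was on the arrays numbered 2 in both lines. The common change was -0.43 (SE 0.09, adjusted p = 0.693).

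OAS1, a sensor of double-stranded RNA that activates RNase L, was at 7.73, 8.02 and 7.62 with vehicle and 7.31, 7.89 and 7.39 with MI-2 in HBL-1. In TMD8 it was at 8.32, 7.72 and 8.52 with vehicle and 7.93, 6.97 and 7.95 with MI-2. Each pair was lower with MI-2 while the groups overlapped, and the change was -0.42 (SE 0.09, adjusted p = 0.693). Its other probes gave -0.30 and -0.27. OAS2, of the same family, was at -0.43 (SE 0.12) and lower in 5 of 6 pairs, and its other probes gave -0.36, -0.07 and -0.03.

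IFIT1, which blocks translation of viral RNA, was at -0.45 (SE 0.12, adjusted p = 0.693), with pair changes from -1.06 to -0.02, and a second probe gave 0.05. MX1, an antiviral GTPase, was at -0.29, and EIF2AK2, the kinase PKR, at -0.23, both lower in every pair. The transcription factors of the response were closer to 0, with STAT2 at 0.04, IRF9 at -0.03 and IRF7 at -0.08. RSAD2, the antiviral protein viperin, was the highest member at 0.13. MX1, EIF2AK2, RSAD2 and these factors were named after their values were seen.

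The median of the interferon list was negative in each pair, at -0.14, -0.06 and -0.02 in HBL-1 and -0.15, -0.34 and -0.22 in TMD8. The number of members higher was 8, 12 and 15 of 30 in the HBL-1 pairs and 8, 3 and 7 of 30 in the TMD8 pairs. At an unadjusted p under 0.05, 3 members were lower in HBL-1 (3.64% of all genes) and 9 in TMD8 (3.44% of all genes). For the difference of the lines 3 members had a lower change in TMD8 at an unadjusted p under 0.05, where 3.18% of all genes did, and none passed. OAS1 was at -0.57 (SE 0.12) in TMD8 and -0.26 in HBL-1, and IFI44L at -0.53 (SE 0.12) and -0.32.

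**Figure D3:**
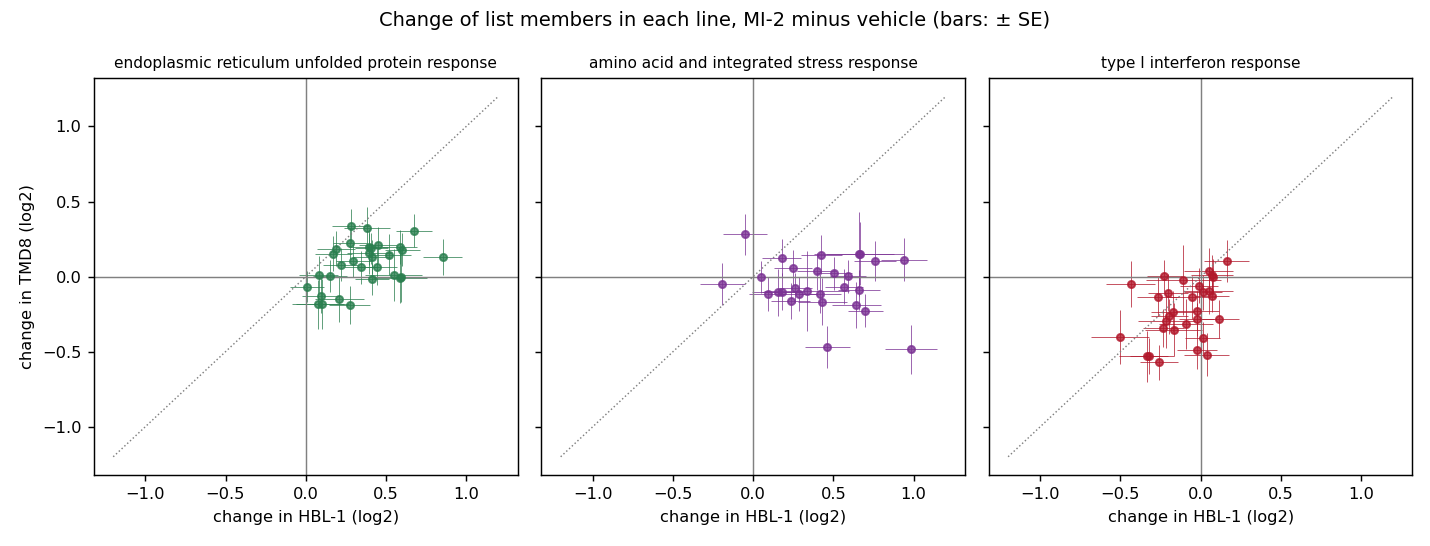
Change with MI-2 in HBL-1 (x axis, log2) against the change in TMD8 (y axis, log2) for the measured members of 3 lists, 1 point per gene with bars of ± SE; the dotted line marks equal changes. The list medians are 0.38 and 0.11 for the unfolded protein response, 0.42 and -0.07 for the integrated stress response and -0.07 and -0.23 for interferon genes, in HBL-1 and TMD8; with arrays scaled to their medians the common medians are -0.03, -0.09 and -0.35.

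The target's own gene and that of its partner BCL10 lay close to 0. MALT1 was at -0.05 (SE 0.08, adjusted p = 0.929; second probe 0.09) and BCL10 at -0.01 (SE 0.13, second probe -0.11). Of 21 CBM complex and IKK genes 15 were lower, with a median of -0.04. SHARPIN, a subunit of the linear ubiquitin ligase, was at -0.38 (SE 0.10, adjusted p = 0.693) and lower in all 6 pairs. IKBKB, the kinase IKK-beta, was at 0.18, UBE2V1, a cofactor of lysine-63 ubiquitin chains, at -0.17 and CSNK1A1, casein kinase 1 alpha, at -0.17 (other probes -0.09 and -0.05).

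Genes on a list of reported MALT1 substrates were examined as transcripts. Whether MALT1 cleaves each of these proteins in these cells was not tested. ZC3H12A, which encodes Regnase-1, was at 0.22 (SE 0.08, adjusted p = 0.713), higher in all 6 pairs with changes of 0.01 to 0.47. TNFAIP3, the ubiquitin-editing enzyme A20, was at 0.24 (SE 0.12), with 0.40 in HBL-1 and 0.08 in TMD8. MAP3K14, the kinase NIK, was at -0.32, RC3H2, which encodes Roquin-2, at -0.21, and CYLD, a deubiquitinase, at -0.00. The median of the 11 measured genes of this list was -0.00.

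NF-kB targets did not share a direction over both lines, while most were lower in TMD8. Of 51 measured members 29 were lower and 22 higher, with a median of -0.04, and 1 was higher (3.04% of all genes) and 4 lower (3.59% of all genes) at an unadjusted p under 0.05. The pair medians were 0.07, 0.06 and -0.04 in HBL-1 and -0.12, -0.13 and -0.16 in TMD8, where 39 of 51 members were lower. At an unadjusted p under 0.05, 4 members were higher (3.77% of all genes) and 0 lower in HBL-1, and 1 was higher (2.83% of all genes) and 9 lower (3.44% of all genes) in TMD8. In the difference of the lines 6 were lower in TMD8 (3.18% of all genes).

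CCL3, a chemokine secreted by stimulated B cells, was at 6.62, 6.15 and 7.86 with vehicle and 6.42, 5.77 and 7.23 with MI-2 in TMD8, lower in each pair with overlapping groups. In HBL-1 it was near the detection limit, found on 2 of its 3 vehicle arrays and on 1 array with MI-2. Its common change was -0.30 (SE 0.09, adjusted p = 0.693). TNIP1, a partner of A20, was at -0.27, BCL3, a nuclear IkB protein, at -0.21 and BIRC3, an inhibitor of apoptosis, at -0.20. NFKBIA, the IkB-alpha feedback inhibitor, was at 0.16 (SE 0.09), with pair changes of 0.45, 0.30 and 0.14 in HBL-1 and 0.13, 0.04 and -0.12 in TMD8.

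The cytokine IL6 was detected on all 6 TMD8 arrays and on no HBL-1 array, and its change in TMD8 was -0.56, with pair changes of -0.46, -0.32 and -0.91. SOCS3, a STAT3 target and feedback inhibitor of cytokine signals, had the same detection and was at -0.57 in TMD8, and its second probe had a common change of -0.07 against -0.28 for the probe used. IL10 was at -0.13 (SE 0.10), IRF4, a survival factor of these lymphomas, at -0.04 (SE 0.08) and MYC at 0.02 (SE 0.08, second probe -0.15). RELB was at 0.02 and BCL2A1 at -0.08. SLC5A5, the sodium-iodide symporter, was not detected in TMD8, and in HBL-1 it was at 5.17, 5.53 and 5.59 with vehicle and 4.81, 4.56 and 4.52 with MI-2. HMOX1 was at 0.02 and TM2D3 at 0.09.

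The remaining programmes had medians within 0.10 of 0, and with arrays scaled to their medians the median of every list was below 0. Proteasome subunits, which degrade ubiquitinated proteins, were higher in 26 of 31 cases with a median of 0.06 that was positive in all 6 pairs. The lowest of them was PSMA2 at -0.24 (SE 0.07, adjusted p = 0.693), lower in every pair, and PSMB4 was at 0.17. MYC targets and ribosome biogenesis genes were lower in 24 of 31 cases with a median of -0.06 that was negative in all 6 pairs, among them BYSL at -0.26 and NOP56, a nucleolar protein of ribosomal RNA processing, at -0.21 (other probes -0.06 and -0.12). Genes of S phase and DNA replication were lower in 23 of 30 cases (median -0.05), with UHRF1, which maintains DNA methylation, at -0.19 and GINS4, a subunit of the replicative helicase, at -0.26. Apoptosis regulators were lower in 18 of 25 cases (median -0.07). BID, which promotes apoptosis, was at -0.25 (other probes -0.04 and -0.29) and BAD at -0.24.

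In cholesterol synthesis 16 of 24 genes were higher (median 0.06), with HMGCS1, an early enzyme of the pathway, at 0.35 (SE 0.10) and SQLE, squalene epoxidase, at 0.22 (second probe 0.02), both higher in all 6 pairs. In the NRF2 antioxidant response 19 of 24 genes were higher (median 0.07), with UGDH, which makes the substrate of glucuronidation, at 0.34 (SE 0.09) and SQSTM1, an autophagy receptor, at 0.16. Heat shock genes were lower in 16 of 22 cases (median -0.08), among them the HSP90 cofactor AHSA1 at -0.16 and HSPE1 at -0.19. The metallothionein list had a median of -0.05, with MT1A at 0.25 and MT1X at -0.16. The JAK-STAT3 list had a median of -0.05 and the Regnase-1 and Roquin target list of -0.05. Immediate early genes had a median of 0.02, with DUSP1, a phosphatase of MAP kinases, at 0.32 and JUN at -0.27. Medians were -0.05 for mitosis, -0.02 for glycolysis and 0.03 for histone genes, with BUB1, a mitotic checkpoint kinase, at -0.18, SLC2A1, a glucose transporter, at -0.20 and HIST2H4A at 0.20.

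The identity of the cells was checked by markers. All 7 B cell markers were measured, although PAX5 was detected on 3 of 12 arrays, and their change had a median of -0.06. The B cell receptor list had a median of -0.03, with CD79B, a signalling chain of the receptor, at 0.19 and higher in all 6 pairs (other probes 0.09 and -0.02). ABC-type lymphoma genes had a median of -0.02, with FOXP1 at 0.27 (other probes 0.15, 0.02 and 0.12) and ETV6 at -0.22, and germinal centre-type genes of 0.00, with BCL6, the germinal centre repressor, at -0.20. Of other cell types, 4 of 11 T cell, 0 of 7 NK cell, 4 of 12 myeloid, 1 of 7 erythroid, 3 of 8 epithelial and 1 of 7 fibroblast markers passed the detection filter. The fibroblast marker was COL1A2, found on 3 of 3 HBL-1 MI-2 arrays and on no other array, and at least 1.22-fold higher there. It passed the detection filter only through these arrays, so the filter itself favoured a higher value there (its common change had an adjusted p of 0.704).

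Plasma cell markers are given beside the unfolded protein response, which secretory cells use. All 7 were measured, with 4 higher and a median change of 0.20, and 3 were higher (3.04% of all genes) and 0 lower at an unadjusted p under 0.05. These were TNFRSF17, the receptor BCMA, at 0.30, SDC1, syndecan-1, at 0.25 (second probe 0.14) and MGC29506, a protein of immunoglobulin assembly now called MZB1, at 0.21. The remaining higher marker was XBP1, which is also a member of the unfolded protein response list. The median change of 0.20 is that of XBP1 itself, so the 2 lists are not separate. The lower markers were PRDM1, the repressor BLIMP-1, at -0.17, CD38, a surface enzyme, at -0.08 and IRF4 at -0.04. In HBL-1 3 markers were higher (3.77% of all genes) and 2 lower (3.64% of all genes) at an unadjusted p under 0.05. The lower were CD38 (-0.33) and PRDM1 (-0.32). In TMD8 0 were higher (2.83% of all genes) and 0 lower (3.44% of all genes). The summed level of the 7 on the log2 scale was 11.83 to 12.15 with vehicle and 12.15 to 12.48 with MI-2 in HBL-1, and 12.34 to 12.54 and 12.34 to 12.58 in TMD8. In such bulk samples more cells of a kind and more RNA per cell cannot be told apart, and the part of these markers in the result was not tested.

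**Figure D4:**
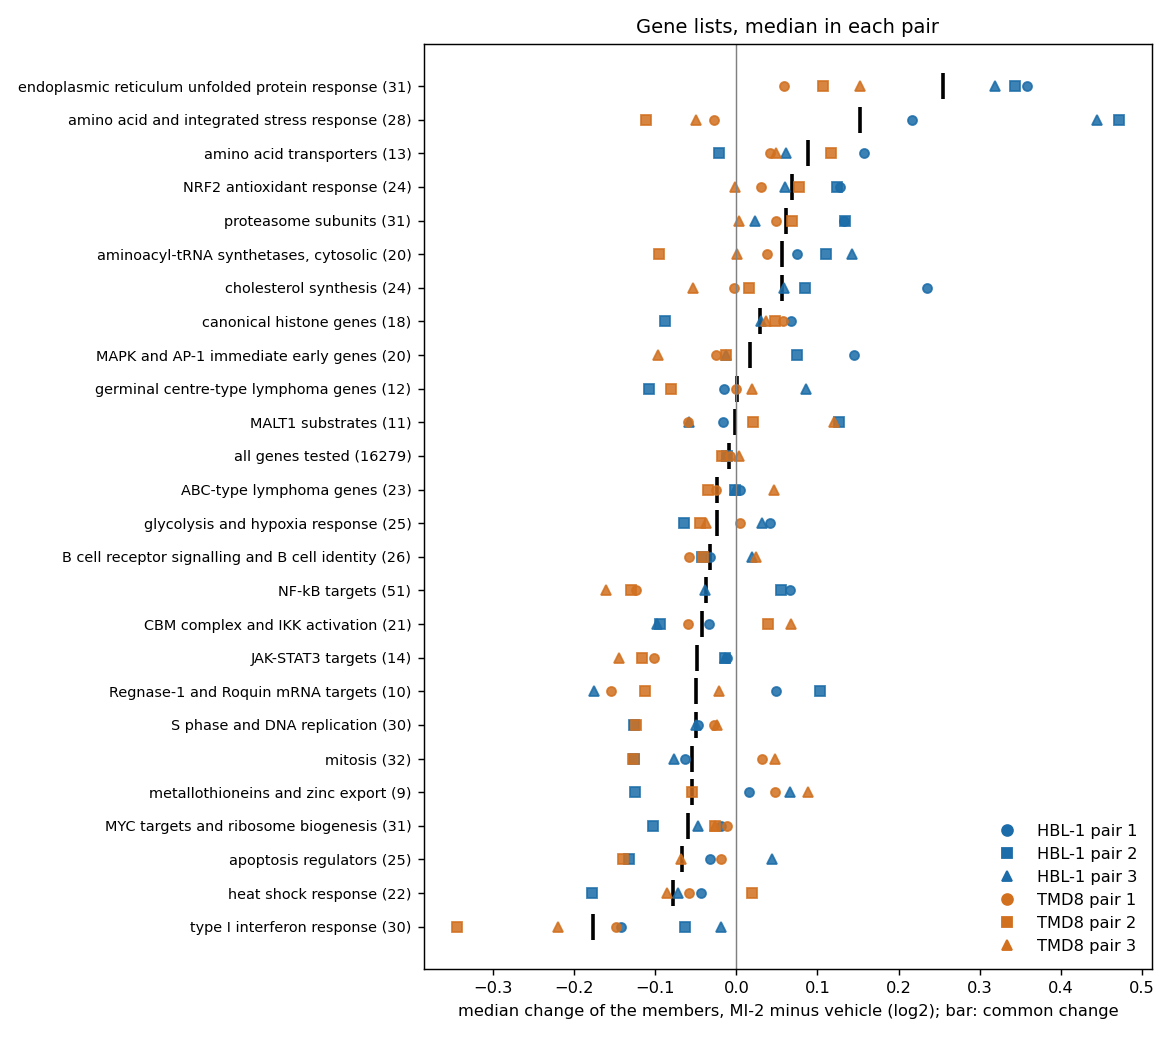
Median change of the measured members of the gene lists shown (rows, number measured in parentheses) in the 6 pairs (x axis, log2, MI-2 minus vehicle); blue symbols are HBL-1, orange TMD8, and the black bar is the median of the common changes. Unfolded protein response genes are at the top (0.25) and interferon genes at the bottom (-0.18) of the plot; with arrays scaled to their medians these become -0.03 and -0.35, and all genes -0.21.

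Across genes, the changes of the 6 pairs had little in common. Pearson correlations over the 16279 genes were 0.058 to 0.076 between HBL-1 pairs, 0.039 to 0.052 between TMD8 pairs and -0.012 to 0.031 between pairs of different lines. The mean changes of the lines correlated at 0.026. These are descriptions across genes, which are not independent replicates, and all arrays were normalized together.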

How the data were processed

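RNA of HBL-1 and TMD8 cells was measured on Illumina bead arrays. Per the file headers, the authors deposited an intensity, linear and not normalized, and a detection p-value for each probe and array. They also deposited log2 values by gene name, whose processing is not given in the sources used here. The submitters' processing notes list Partek and say nothing of its use.

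Probes were named by matching the deposited log2 values to intensities. Of 34687 genes, 34657 matched within 0.02 log2 over 16 arrays, and 0 after the arrays were shuffled. Genes matched to no probe (30) and probes without a name (74 of 47323) were left out. Intensities of the 12 arrays were processed with limma 3.58.1 in R 4.3.3 (neqc with offset 16, quantile normalization, log2). A probe was kept where at least 3 arrays had a detection p under 0.05. The probe with the highest mean level stood for a gene (3463 genes had more than 1). The model held pair and MI-2, a second model MI-2 by line, and tests were two-sided with Benjamini-Hochberg adjustment over 16279 genes at 0.05. The fit was tested on simulated data. Precision is limited by the number of arrays.

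The numbers pair the arrays: deviations from the group means correlated at 0.19 to 0.35 for the same number within a line. Among arrays of the other treatment in its line, every array correlated best with that of its own number. The labels do not say whether replicate arrays are of separate cultures. The p-values therefore reflect the spread of these arrays alone, possibly a technical one.

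Members, lists and rules were chosen with earlier results of these data known. Named genes were, per direction, the 10 with the smallest p and 1 sign in 6 pairs, and up to 4 per list by p. A further list, also chosen with earlier results known, held pathway genes and others such as VPREB3, SLC5A5 and TM2D3. Its member CCL4 was not measured. Some items, among them 1 of the higher genes and 1 gene list, are not reported here. Others are said to have been named after their values were seen. Alternatives were the pair term, background correction, scaling, filters, probe choice, variance model, array weights, the authors' values and leaving out each pair.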

Additional observations from a re-analysis of the deposited data

Results flagged for a closer look

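In 6 of 174 results 1 pair stood apart from the other 5, by a gap to its nearest neighbour of at least 0.625 of the whole range. Chance flags about 1 in 20 groups. HBL-1 pair 3 gave a change of 1.19 for CARS, a tRNA synthetase, where the other pairs lay between -0.06 and 0.20. TMD8 pair 2 gave -0.86 for SHARPIN (others -0.39 to -0.11), -0.81 for CHAF1B, a chromatin assembly subunit (others -0.28 to 0.03), and -0.46 for CD5, a T cell and B cell surface protein (others 0.00 to 0.20). HBL-1 pair 2 gave 0.43 for the proteasome subunit PSMB4 (others 0.07 to 0.16) and a median of -0.088 for canonical histone genes (others 0.03 to 0.07).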

How the results depend on the processing

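The count of 0 genes called held in all alternatives but 3. Without background correction 2 genes passed, ARMET (1 higher, 0.47) and EPSTI1 (1 lower, -0.39), each with an adjusted p of 0.0400. With normexp at an offset of 50 the same 2 genes passed (1 higher, 1 lower), each with an adjusted p of 0.0355. With arrays scaled to their medians 3925 genes passed, 25 higher and 3900 lower (0.154% and 24% of genes), beside a shift of the median gene to -0.21. That scaling reversed the unfolded protein response median to -0.034 and took the interferon median to -0.35. It left 0 unfolded protein members higher and 25 interferon members lower at an unadjusted p under 0.05. Such a p was reached by 6926 of all genes there, in either direction. The cause of this shift was not tested. Genes at an unadjusted p under 0.05 numbered 1079 in the report, 652 without the replicate block, 2199 with the authors' values for all named genes, 6926 with scaling to array medians, 2676 with scaling to the median of the genes tested (chosen after seeing the data) and 1970 without the filter. Unfolded protein members numbered 9 without the block, against 17. Interferon members numbered 2 without the block, 2 with pair as a random block, 12 with the authors' values for either set of genes and 11 without background correction, against 7, and 6 to 11 when each pair was left out. The block changed no other call. For these alternatives the shares of all genes by direction are not given, so the member counts alone are no result about the lists. For the difference of the lines trended and robust eBayes called 2 genes, IL4I1 (-1.50, adjusted p = 0.0120) and CEBPB (-0.93, adjusted p = 0.0215), where the other settings run called 0. Over all alternatives the adjusted p of ARMET ranged from 0.0355 to 0.998. Detection limits what can be said of dim genes such as VPREB3 in TMD8.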
